A study of Mus musculus with 3 samples.

Results

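The cells described here were blood neutrophils of the mouse in which Mmp8 mRNA was detected. They were taken from the cells to which the authors' tables give cluster number 0 in the naive blood and the metastasis-bearing blood, and only from clear cells: the barcode had to be unique to 1 table, and the hashtags of that table had to hold 0.5 or more of all hashtag counts of the cell. Members were chosen by measured values, the Mmp8 count and 5 interferon-induced genes. A cell was a member when its corrected Mmp8 count was above 0 and fewer than 3 of the genes Ifit1, Ifit3, Isg15, Rsad2 and Rtp4 were above 0. This rule found 1290 cells among 2780 clear cells of the cluster, 7713 clear blood cells and 16328 cells deposited in all. The comparison set was the 1137 cells of the same cluster that passed the same interferon limit and had no Mmp8 count, and 353 cells with 3 or more interferon genes belonged to neither class. The members were 365 Het and 165 Hom cells of naive mice, and 449 Het and 311 Hom cells of metastasis-bearing mice. Their working name calls them younger neutrophils. That word rests on RNA markers, because the age of a cell was not measured, and the cells are called Mmp8-positive neutrophils in what follows.

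The study read RNA together with 35 antibody tags in single cells of brain and blood from female C57Bl/6 mice aged 2 to 3 months, in 1 pool of 8 hashed samples of which 4 were blood. The mice of the series were Cx3cr1+/-, Cx3cr1-/-, CCR2+/- or CCR2-/-, and the blood hashtags say only Het or Hom without naming the gene. No blood sample is labelled as wild type. Naive mice received no tumour cells, and metastasis-bearing mice had been given E0771 cells, a mouse breast cancer line, through the carotid artery about 2 weeks earlier. Blood was drawn from the heart into heparin and red cells were lysed, and the labels do not say how many mice stood behind a blood hashtag. Each of the 4 groups was 1 hashed sample, so levels are compared between conditions as values without a test, and only the within-sample Mmp8 difference was tested between 2 samples and 2. Mmp8-positive and Mmp8-negative cells, in contrast, were present in all 4 samples and were compared as 4 pairs. The 4 values of a gene are always given in 1 order: first naive Het, then naive Hom, followed by the metastasis-bearing Het and Hom samples.

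Neutrophils are made in bone marrow and fill their granules in an ordered way: azurophil granules with myeloperoxidase and elastase first, specific granules with lactoferrin, cathelicidin and neutrophil collagenase next, and gelatinase granules last. Mmp8 encodes that neutrophil collagenase, a protease kept in specific granules. Transcripts of granule proteins decline as the cells leave the marrow, while the receptor CXCR2, which draws neutrophils into blood, and CXCR4, which holds them in marrow and returns aged cells to it, change in opposite directions. Transcription factors of the C/EBP family drive the genes of specific granules.

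Levels are corrected counts per 10000 corrected counts of the summed cells of a class. The naive and the metastasis-bearing tables had been normalised separately by the authors, and 845 barcodes that stood in both were not counted as clear cells. For 206 barcodes of the cluster that stood in both tables, 5699 genes could be set side by side: the median log2 difference between the tables was 0.02, and none of these genes reached 1.5-fold. The sums held between 647862 and 1902654 corrected counts. Raw depth was unequal between the classes: the median raw UMI total was 3263, 2999, 3398 and 3606 in Mmp8-positive cells and 2466, 2578, 2807 and 2883 in Mmp8-negative cells, so that Mmp8-positive cells were deeper in all 4 samples. The levels of markers of other cell types differed between the lists. Summed over the list, 9 monocyte genes reached 4.91 to 5.73 in Mmp8-positive and 5.34 to 6.56 in Mmp8-negative cells, and 7 B cell genes reached 2.12 to 7.95 and 2.95 to 7.93. T cell, NK cell, platelet and eosinophil lists stayed at or under 0.567 in both classes with Gp1bb and Il5ra at 0, basophil genes at or under 0.00641, and haemoglobin genes with Alas2 ranged from 1.11 to 25.9 and from 1.22 to 48.7. Cx3cr1 and Ccr2, the genes of the series' genotypes, were read in cells of the Ly6C-low and Ly6C-high antibody gates. Cx3cr1 stood at 5.58, 1.61, 1.29 and 0.37 in the Ly6C-low gate and at 2.09, 0.455, 1.85 and 0.27 in the Ly6C-high gate. It was lower in each Hom library than in the Het library of its table. Ccr2 stood at 4.09, 4.34, 4.38 and 3.6 in the Ly6C-low gate and at 18, 16.7, 20.6 and 16.5 in the Ly6C-high gate. Which gene the blood hashtags refer to was not tested.

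Mmp8 itself, on which the cells were chosen, summed to 1339, 448, 2072 and 1143 corrected counts in the members, or 8.24, 6.24, 10.9 and 8.53 per 10000. The median member held 3, 2, 3 and 2 counts and the highest 24, 11, 34 and 32. Just inside the limit, 90, 49, 104 and 104 members held a single count, which were 24.7%, 29.7%, 23.2% and 33.4% of them. At 4 or more counts there were 38.1%, 23.6%, 44.1% and 34.7%. On the interferon side, 86, 17, 44 and 64 members had 2 of the 5 genes above 0, and 37, 18, 19 and 38 cells with Mmp8 stood just outside with 3. These values describe the choice of the cells and carry no test.

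Mmp8-positive cells made up 55.3%, 51.6%, 59.9% and 44.6% of the neutrophils with fewer than 3 interferon genes, with exact Clopper-Pearson 95% intervals of 51.4 to 59.1, 45.9 to 57.2, 56.3 to 63.4 and 40.9 to 48.4. The intervals cover counting error only. The share was lowest in the metastasis-bearing Hom sample and highest in the metastasis-bearing Het sample. After each cell had been thinned to 1000 corrected counts the shares were 28.9%, 24.4%, 34.3% and 23.2%, again highest in metastasis-bearing Het mice, while naive Hom and metastasis-bearing Hom mice came to lie within each other's intervals (19.8 to 29.5 and 20.2 to 26.6). Cells of the B220-positive antibody gate, which holds B cells, gave a background of 1.94%, 1.95%, 1.34% and 2.4% with an Mmp8 count at median depths of 4587, 4765, 4118 and 3956 UMIs, deeper than the neutrophils. Among the neutrophils with 3 or more interferon genes 48.9%, 68.4%, 60% and 52.3% held Mmp8. Members were 21.3%, 8.34%, 21.6% and 16% of all clear blood cells of their sample.

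The bases before the start of 4 genes are shown because Mmp8 defines the cells, Ltf and Ngp are the granule genes whose difference was unequal between conditions, and Retnlg is one of the markers proposed with the cells. Each is the 250 bases before the RefSeq start on GRCm38.p6, on the plus strand, 5′ to 3′, and capitals mark matches to the C/EBP half-site pattern TTGCNNAA or its reverse complement TTNNGCAA.
Mmp8, chr9:7558179-7558428, the gene itself at chr9:7558429-7568486: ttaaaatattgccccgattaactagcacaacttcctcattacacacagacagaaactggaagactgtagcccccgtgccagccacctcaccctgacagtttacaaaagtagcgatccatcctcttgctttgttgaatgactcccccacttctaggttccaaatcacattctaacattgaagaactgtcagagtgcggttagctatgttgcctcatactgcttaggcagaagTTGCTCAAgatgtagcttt
Ltf, chr9:111019042-111019291: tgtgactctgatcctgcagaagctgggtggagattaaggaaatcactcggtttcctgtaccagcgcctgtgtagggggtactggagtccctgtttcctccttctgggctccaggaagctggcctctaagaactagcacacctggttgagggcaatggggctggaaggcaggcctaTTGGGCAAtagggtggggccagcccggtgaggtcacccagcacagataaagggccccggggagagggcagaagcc
Ngp, chr9:110419558-110419807: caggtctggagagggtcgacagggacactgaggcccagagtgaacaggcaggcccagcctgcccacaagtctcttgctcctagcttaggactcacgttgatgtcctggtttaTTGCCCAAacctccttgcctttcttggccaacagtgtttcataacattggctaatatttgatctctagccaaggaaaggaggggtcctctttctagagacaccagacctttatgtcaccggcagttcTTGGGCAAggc
Retnlg, chr16:48872358-48872607: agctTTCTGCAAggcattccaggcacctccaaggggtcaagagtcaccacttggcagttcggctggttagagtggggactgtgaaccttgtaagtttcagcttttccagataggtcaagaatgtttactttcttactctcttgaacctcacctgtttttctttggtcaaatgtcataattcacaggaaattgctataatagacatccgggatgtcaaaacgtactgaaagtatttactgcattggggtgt
Counted from the start backwards, the match began at base -19 in Mmp8, -75 in Ltf, -246 in Retnlg and at -138 and -11 in Ngp. The same window of Camp, a further granule gene, and that of Stfa2l1 were also read and held no match. Among all genes of the RefSeq promoter table, 10.8% of 27025 held a match on either strand. Of the 12 genes named below as higher in Mmp8-positive cells, 10 had an entry and 6 of these held a match (Ltf, Retnlg, Ly6g, Lcn2, S100a9 and Mgst1). Among the 6, Retnlg and Ly6g were proposed with the cells as markers, and Ltf is open to the level limit described below. Of the 12 named as lower, 8 had an entry and 1 held a match (Lair1). A match is a run of letters and not a shown binding site.

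Mmp8-positive cells had higher levels of several specific granule transcripts and of S100a8, S100a9, Wfdc21 and Ccl6 than Mmp8-negative cells of the same sample. By limma on the 4 paired samples, 78 of 5465 genes (1.43%) were higher in Mmp8-positive cells and 451 (8.25%) were lower at a Benjamini-Hochberg adjusted p of 0.05, so that 9.68% of genes were called in either direction. The median log2 difference of all genes was -0.10 on the scale log2(level + 0.1), with 30.4% of genes above 0, and under median-ratio scaling of the sums it was 0.01 with 173 higher (3.18%) and 132 lower genes (2.42%). The direction of a small difference thus depended on the scaling. The share of calls that were higher was 14.7% in the first and 56.7% in the second setting. The 24 genes named by rank below were chosen because they passed under the first scaling with 1 direction in all 4 samples. Under median-ratio scaling of the same sums all 24 kept their direction and passed the threshold. They include Retnlg, Ly6g and Ltf, which are not counted as support for the reasons given below.

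Retnlg, Ly6g and Stfa1 were proposed with the cells as their markers and are given as a description without a test. Retnlg, a secreted resistin-like protein of neutrophils, stood at 108, 89.6, 210 and 206 in Mmp8-positive cells and at 49.6, 51.5, 101 and 113 in Mmp8-negative cells. The Mmp8-positive level was higher in all 4 pairs. Across conditions the classes overlapped, because both Mmp8-negative levels of metastasis-bearing mice lay above the naive Hom Mmp8-positive level. Ly6g, the surface protein by which mouse neutrophils are gated, was at 1.55, 0.613, 1.33 and 1.82 against 0.591, 0.494, 0.427 and 0.699, higher in all 4 pairs and by least in naive Hom mice. Stfa1, a stefin that inhibits cysteine proteases, was at 1.53, 0.279, 5.24 and 6.65 against 0.991, 0.293, 2.51 and 5.3. It did not follow Mmp8 in naive Hom mice, where both classes were at their lowest. Mean log2 differences were 0.96 for Retnlg, 1.06 for Ly6g and 0.47 for Stfa1.

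Specific granule genes were the group with most calls in the higher direction: 12 of 14 listed genes reached the level limit, 7 passed as higher and 0 as lower. Over all genes tested 1.43% were higher. Of the 7, Ltf reached the limit only through the metastasis-bearing Mmp8-positive sums, where it is high, so its call is not counted as support. Without the granule-rich cells described further on, Camp lay under the limit and Cd177 did not pass (limma adjusted p = 0.0608). The list median, Ltf included, was 0.47, against -0.10 for all genes tested. The lists were chosen with earlier results of these data known. Lcn2, the iron-binding lipocalin of specific granules, was at 30.1, 11.8, 34 and 24.3 in Mmp8-positive and 16.8, 9.14, 20.7 and 13.8 in Mmp8-negative cells. Its log2 difference was 0.68 ± 0.06 (SE, 4 pairs, limma adjusted p = 1.32e-06). Lyz2, a lysozyme, was at 33.6, 31.8, 31.9 and 25 against 22.2, 24.9, 20.2 and 16.6 (0.55 ± 0.05, limma adjusted p = 1.4e-06). For Lyz2 the lowest Mmp8-positive level, 24.98 in metastasis-bearing Hom mice, lay barely above the highest Mmp8-negative level, 24.94 in naive Hom mice. These 2 levels come from tables normalised separately. Cd177, a surface glycoprotein stored in these granules, was at 0.585, 0.418, 0.951 and 1.08 against 0.423, 0.401, 0.353 and 0.327. Nearly all of that difference lay in metastasis-bearing mice (0.78 ± 0.18, limma adjusted p = 0.0087), and the call was lost when either of 2 samples was left out. Pglyrp1, a peptidoglycan-binding protein, passed by a small margin (0.16, limma adjusted p = 0.041) and in 1 of 4 fits without a sample.

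Ltf, Ngp and Camp, which encode lactoferrin, neutrophilic granule protein and cathelicidin, differed mainly in metastasis-bearing mice. Ltf was at 0.0492, 0.0279, 1.23 and 2.27 in Mmp8-positive and 0.00799, 0, 0.0492 and 0.0706 in Mmp8-negative cells, a log2 difference of 1.94 that is given without a test for the reason above. Ngp was at 0.357, 0.167, 4.39 and 4.41 against 0.112, 0.185, 0.164 and 0.603 (1.95 ± 0.38, limma adjusted p = 0.00218). Camp was at 0.0677, 0.13, 3.48 and 5.38 against 0.112, 0.0154, 0.0903 and 1.85 (1.59 ± 0.40, limma adjusted p = 0.0146). Ngp and Camp were higher in 3 of 4 pairs only, and the cells behind these values are described further on. The azurophil list was low in both classes: of 8 genes 1 reached the level limit, the protease inhibitor Serpinb1a, which did not pass, and the summed level was 0.167 to 0.515 in Mmp8-positive and 0.201 to 1.04 in Mmp8-negative cells, higher in Mmp8-negative cells in 3 of 4 samples.

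**Figure D1:**
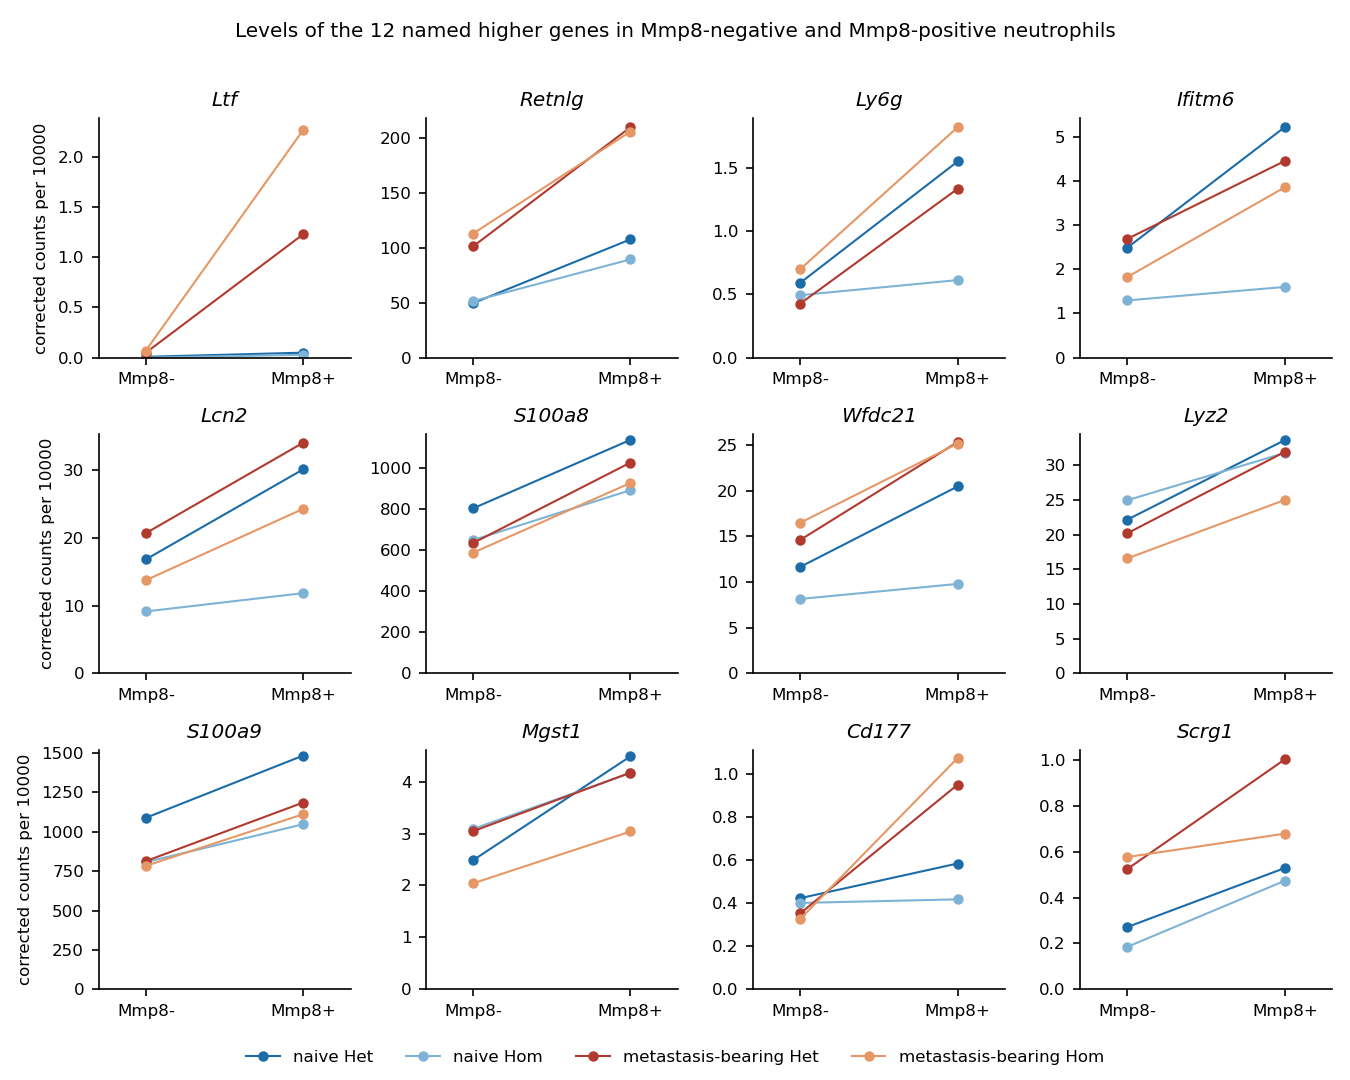
Corrected counts per 10000 (y axis) of the 12 genes named as higher, in Mmp8-negative and Mmp8-positive neutrophils (x axis), with 1 line for each of the 4 hashed samples. By the choice of the genes each line goes up in all 4 samples. The naive Hom line is the flattest for Ly6g, Ifitm6 and Wfdc21. Ltf leaves the floor only in the 2 metastasis-bearing samples, at 1.23 and 2.27.

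Gelatinase granule genes moved less. Of 10 genes 4 were higher and 0 lower, with a list median of 0.22, while 1.43% of all genes tested were higher. Mmp9, the gelatinase, was at 17, 19.9, 15.9 and 16.1 against 14.1, 18.7, 12.9 and 13.4 (0.23, limma adjusted p = 0.00567, in 2 of 4 fits without a sample), with naive Hom Mmp8-negative cells above 3 of the Mmp8-positive sums. Fpr2, a formyl peptide receptor, was at 2.81, 1.89, 3.33 and 2.67 against 1.75, 1.57, 1.69 and 2.08 (0.55 ± 0.10, limma adjusted p = 0.00104). Fpr1 and Padi4, the arginine deiminase of extracellular traps, also passed but in 1 and 2 of the 4 fits that left out a sample. At matched depth Fpr2 alone of the 4 passed, and Mmp9 had a limma adjusted p of 0.0744.

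S100a8 and S100a9 together form calprotectin, the most abundant cytosolic protein of neutrophils. S100a8 stood at 1136, 892, 1026 and 927 in Mmp8-positive and 803, 648, 634 and 587 in Mmp8-negative cells, with no overlap between the classes (0.58 ± 0.04, limma adjusted p = 3.92e-09). S100a9 stood at 1485, 1048, 1186 and 1112 against 1089, 807, 814 and 784 (0.47 ± 0.03, limma adjusted p = 7.56e-09). S100a6 was higher too (0.34, limma adjusted p = 0.000311), S100a10 was lower, and 3 other S100 genes of the 7 did not pass. Wfdc21, a small secreted protein with a whey acidic protein domain, was at 20.5, 9.79, 25.3 and 25.1 against 11.7, 8.15, 14.6 and 16.5 (0.62 ± 0.07, limma adjusted p = 1.25e-05). The chemokine Ccl6 was at 20.7, 31, 34.9 and 31 against 14.3, 23.1, 27.1 and 24 (0.42 ± 0.05, limma adjusted p = 9.73e-06). With Chil1, a chitinase-like protein, 3 of 6 tested resistin and secreted genes were higher and 0 lower, against 1.43% higher over all genes tested.

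Ifitm6, Mgst1 and Scrg1 completed the genes named as higher. Ifitm6, of the interferon-inducible transmembrane family, was at 5.23, 1.6, 4.46 and 3.86 against 2.49, 1.3, 2.69 and 1.83 (0.77 ± 0.10, limma adjusted p = 7.45e-05). Its relatives Ifitm1 and Ifitm2 were lower, by 0.18 and 0.22 on the log2 scale, and Ifitm3 did not pass, so the 4 genes of the family did not share a direction. Mgst1, a membrane glutathione transferase, was at 4.49, 4.17, 4.17 and 3.04 against 2.48, 3.09, 3.04 and 2.04 (0.56 ± 0.08, limma adjusted p = 0.000105). Among 7 tested stefins and cystatins, Gm5483 (0.45, limma adjusted p = 0.000395) and Stfa2l1 (0.18, limma adjusted p = 0.019, in 1 of 4 fits without a sample) were higher. Cst3, the secreted inhibitor cystatin C, was lower at 16.3, 21.3, 17.1 and 16.1 against 21.7, 23.9, 23.5 and 22.6 (-0.38 ± 0.05, limma adjusted p = 0.000105). The shares over all genes tested were 1.43% higher and 8.25% lower. The stefin transcripts are close copies of each other, and how reads were split among them is not given in the sources used here.

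The 12 genes named as lower were chosen to be lower in all 4 pairs. They were Npm1, Tagln2, Pmaip1, Ptma, Mrpl52, Ppia, Ttr, Tgm2, Itgax, Nsa2, Snrpg and Lair1. Npm1, a nucleolar chaperone of ribosome assembly, was at 0.634, 0.864, 0.394 and 0.433 against 1.22, 1.71, 0.755 and 0.904 (-0.87 ± 0.11, limma adjusted p = 4.08e-05). Tagln2, an actin-binding protein, was at 0.677, 0.989, 1.64 and 1.42 against 1.4, 1.68, 2.58 and 2.3 (-0.73 ± 0.09, limma adjusted p = 4.08e-05). Tagln2 overlapped across conditions because both classes were higher in metastasis-bearing mice. Ptma, a nuclear acidic protein, was at 2.67, 3.54, 2.89 and 3.04 against 4.29, 4.65, 5.13 and 5.59, without overlap (-0.68 ± 0.08, limma adjusted p = 1.5e-05). Ttr, transthyretin, which liver and choroid plexus make, was at 9.26, 10.7, 8.89 and 8.74 against 12.9, 14.1, 13.2 and 19.7, also without overlap (-0.64 ± 0.09, limma adjusted p = 7.45e-05). Ttr was also read in other cells, at 4.03, 4.24, 4.68 and 3.06 in the Ly6C-high gate, at 8.06, 27.3, 25 and 7.83 in the Ly6C-low gate, and at 7.78, 11.8, 15.8 and 24.6 in B220-positive cells. The other 8 ranged from -0.63 for Ppia, the chaperone cyclophilin A, to -0.84 for Pmaip1, which encodes the pro-apoptotic protein Noxa. They include the integrin chain Itgax, the inhibitory receptor Lair1, the transglutaminase Tgm2 and the mitochondrial ribosomal protein Mrpl52. The call for Tgm2 was lost when 1 of the samples was left out. Ribosomal protein genes, which were left out of the ranking, were lower in 76 of 90 cases and higher in 0, with a median of -0.39.

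The calls were repeated at equal raw depth in a subset of the cells. When the cells of both classes were matched on raw UMI total within each sample, 846 cells per class remained (118 to 265 a sample) with medians of 2784, 2724, 2905 and 3340 UMIs against 2770, 2733, 2906 and 3331. In this subset 18 of 5423 genes (0.332%) were higher and 40 (0.738%) were lower, of which 17 and 40 were shared with the calls over all cells. Unadjusted limma p-values under 0.05 numbered 697, against 1204 over all cells. Of the named genes, 9 of 12 higher ones still passed and 4 of 12 lower ones did. Retnlg, Ly6g and Ltf are among the 9 and are not counted as support, for the reasons above. Ribosomal protein genes fell out of the calls: 4 of 90 remained lower and their median was -0.13.

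The log2 difference at matched depth was 1.81 for Ltf, 0.67 for Retnlg, 0.77 for Ly6g, 0.37 for Lcn2, 0.41 for Lyz2, 0.33 for S100a8, 0.31 for S100a9, 0.29 for Wfdc21 and 0.38 for Mgst1. These 9 genes stayed higher, and all 9 differences were smaller than over all cells. Ifitm6 (0.36, limma adjusted p = 0.085), Cd177 (0.55, limma adjusted p = 0.115) and Scrg1 no longer passed. Among the lower genes Tagln2 (-0.65, limma adjusted p = 0.0023), Mrpl52 (-0.78, limma adjusted p = 0.0167), Ptma (-0.34, limma adjusted p = 0.0274) and Ttr (-0.36, limma adjusted p = 0.037) passed. Npm1 was at -0.11 (limma adjusted p = 0.802), Ppia at -0.20 (0.313 by the same adjustment) and Snrpg at -0.23 (0.596). Tgm2 (-0.81, limma adjusted p = 0.0508), Lair1 (-0.73, limma adjusted p = 0.06), Pmaip1 (-0.66) and Itgax (-0.65) did not pass either, although their differences were close to those over all cells, and Nsa2 was at -0.41. A lost call in this smaller subset is thus not always a smaller difference.

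**Figure D2:**
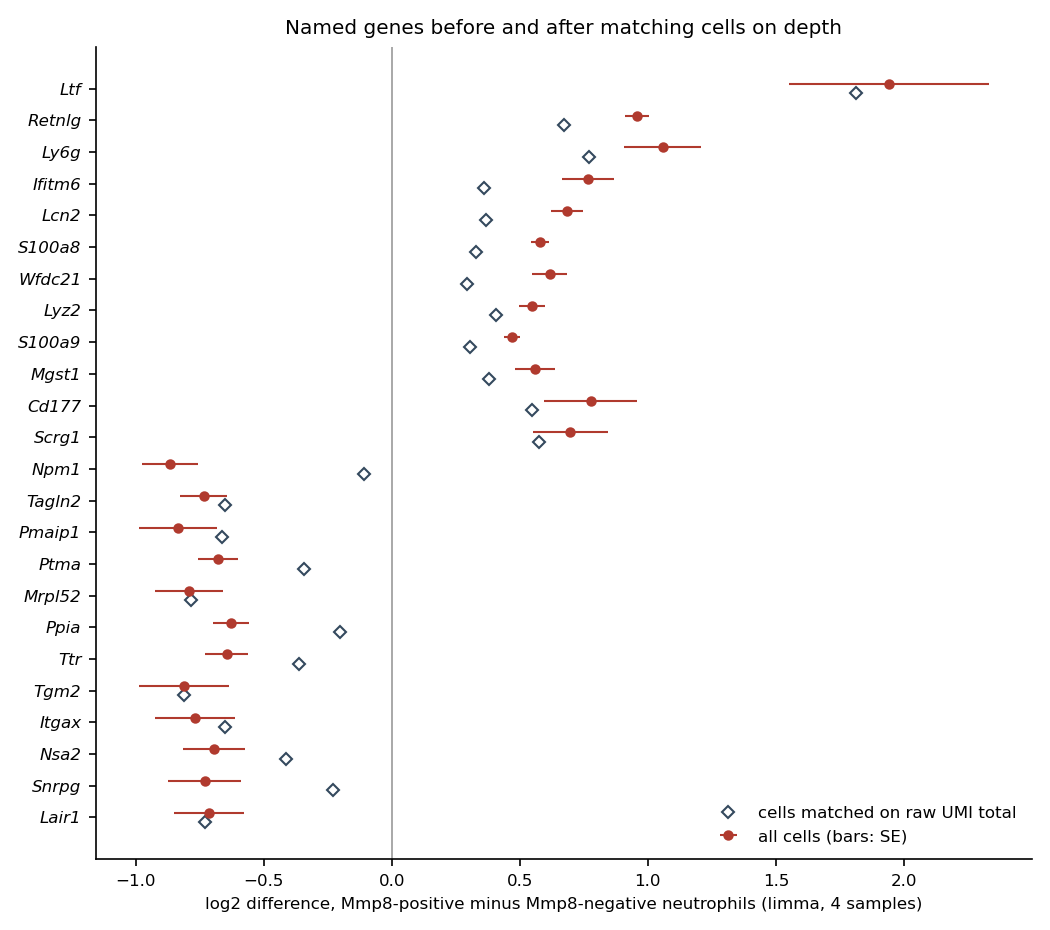
Log2 difference between Mmp8-positive and Mmp8-negative neutrophils (x axis) for the 24 named genes (y axis), over all cells with the standard error as a bar and in cells matched on raw UMI total as open diamonds. The diamonds of the higher genes lie nearer to 0 than the filled points and all stay above it, while Npm1 moves from -0.87 to -0.11 and Tagln2, Mrpl52, Tgm2 and Lair1 hardly move.

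The genes of the receptor and adhesion lists were lower or did not pass. The formyl peptide receptors Fpr1 and Fpr2, which stood in the gelatinase list, were higher as given above. Of 15 chemoattractant and growth factor receptors 0 were higher and 4 were lower, beside 1.43% higher and 8.25% lower over all genes tested. The list median was -0.09 and turned to 0.06 under median-ratio scaling. Cxcr4 was at 3.01, 5.29, 3.63 and 3.43 in Mmp8-positive and 4.25, 6, 4.67 and 5.3 in Mmp8-negative cells (-0.41 ± 0.07, limma adjusted p = 0.000951). It was lower in all 4 pairs and also at matched depth (-0.37, limma adjusted p = 0.0208). Cxcr2 was at 21.3, 17.2, 17.5 and 18.4 against 23.1, 18.4, 18.1 and 19.5, a log2 difference of -0.09 with a 95% interval of -0.18 to 0.01 that did not pass and turned to 0.06 under median-ratio scaling. Ifngr1, a chain of the interferon gamma receptor, was lower over all cells (-0.50, limma adjusted p = 0.00102) and at matched depth (-0.48, limma adjusted p = 0.017). Csf3r, the receptor for G-CSF, was lower over all cells (-0.30, limma adjusted p = 0.000506) but not at matched depth (-0.15, limma adjusted p = 0.104).

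Of 12 tested adhesion genes, Itgal, Itgax, Itga4 and Cd47 were lower and 0 were higher, while 8.25% of all genes tested were lower. Itga4, a chain of the integrin VLA-4, was at 1.92, 3.16, 2.61 and 2.89 against 3.08, 4.31, 3.67 and 4.01 (-0.51 ± 0.07, limma adjusted p = 0.000116) and passed at matched depth (-0.42, limma adjusted p = 0.0132). The 6 NADPH oxidase genes, which make the respiratory burst, gave 0 calls.

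Among 18 inflammatory cytokine and NF-kB target genes 1 was higher, the cytokine Osm, and Il1b, Nfkbia and Tnfaip2 were lower. For this and the next lists, the shares over all genes tested were 1.43% higher and 8.25% lower, and 0.332% and 0.738% at matched depth. Il1b was at 37.7, 35.1, 34.3 and 45.1 in Mmp8-positive and 48.4, 40, 44.8 and 58 in Mmp8-negative cells, lower in all 4 pairs (-0.32 ± 0.04, limma adjusted p = 8.39e-05). At matched depth the difference was -0.28 (limma adjusted p = 0.000293). Of 12 MHC class I genes 4 were lower and 0 higher, and B2m and Psmb8 were also lower at matched depth (-0.23 and -0.42). Of 16 interferon-induced genes outside the rule, Oasl2 alone passed, as lower. Survival genes gave 2 lower calls of 13, the anti-apoptotic Mcl1 and the pro-apoptotic Pmaip1, and 0 at matched depth.

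Immediate early genes, which dissociation and handling also raise, were lower in 12 of 17 cases and higher in 0, with a median of -0.33. Jun was at 4.27, 4.61, 3.72 and 3.29 against 6.46, 5.88, 5.67 and 5.1, without overlap (-0.54, limma adjusted p = 4.08e-05). The share lower over all genes tested was 8.25%, and 0.738% at matched depth. At matched depth 0 of the 17 passed and their median was -0.15, against -0.08 for all genes tested there. The granulopoiesis factors shared part of this list: 6 of 11 were lower (Spi1, Klf2, Klf6, Fos, Junb and Jund), and 0 at matched depth. Heat shock genes gave 3 lower calls of 7 and 0 at matched depth. Glucocorticoid-induced genes gave 2 lower calls of 6, Tsc22d3 and Txnip, with 1 remaining. The other lists gave few calls, beside 1.43% higher and 8.25% lower over all genes tested. Acute phase genes had 3 higher and 1 lower of 9, glycolysis 2 higher and 1 lower of 15, actin cytoskeleton 3 lower of 20, cell cycle 1 lower of 5, and lipid mediators 0 of 10. The 12 genes common to neutrophils had 3 higher (S100a8, S100a9 and Mmp9) and 1 lower, and remained present in both classes. Among markers of other cell types, the monocyte gene Ly6c2 was higher and Ctss lower, and the B cell genes Cd79a and Cd79b were lower. None of these 4 passed at matched depth, and what part free RNA or doublets had in them was not tested.

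**Figure D3:**
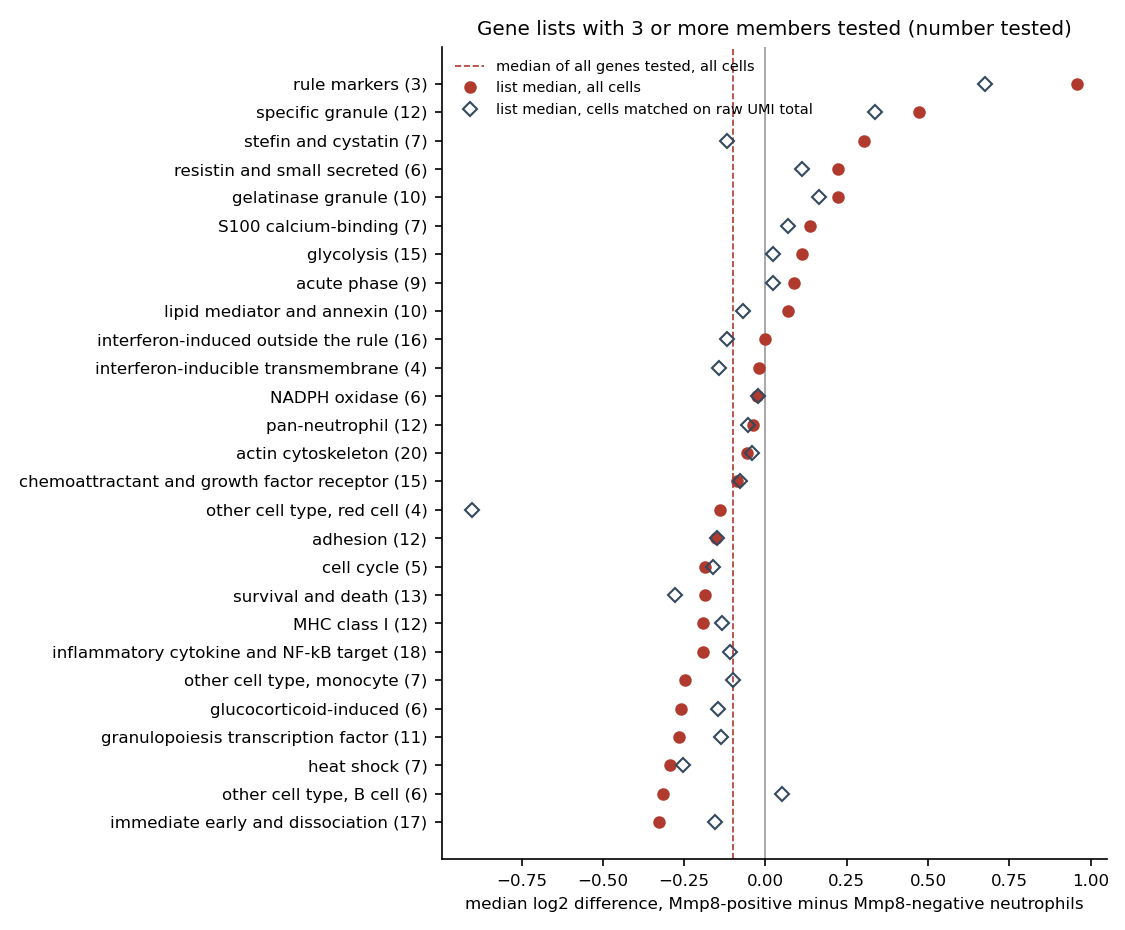
Median log2 difference between Mmp8-positive and Mmp8-negative neutrophils (x axis) of each gene list with 3 or more tested members (y axis, number tested in brackets), over all cells as filled points and at matched depth as open diamonds. The specific granule list lies at 0.47 and 0.34, the immediate early list at -0.33 and -0.15, and the dashed line at -0.10 is the median of all genes.

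Within the members, the levels were also read by the Mmp8 count of the cell. Retnlg at 0, 1, 2 to 3, and 4 or more Mmp8 counts stood at 49.6, 91.8, 90.6 and 135 in naive Het mice and at 51.5, 79.0, 75.4 and 131 in naive Hom mice. It stood at 101, 148, 198 and 250 in metastasis-bearing Het mice and at 113, 167, 176 and 269 in metastasis-bearing Hom mice. A single Mmp8 count thus came with a level well above that of cells with no count, and the cells with 4 or more counts were highest in all 4 samples. Depth moved with the bins in part: the median raw UMI total over the same bins was 2466, 3352, 2728 and 3398 in naive Het mice, the order in which Retnlg also stood, and 2578, 3333, 2523 and 2864 in naive Hom mice. It was 2807, 3251, 3031 and 3553 in metastasis-bearing Het and 2883, 3496, 3341 and 4189 in metastasis-bearing Hom mice, so the cells with 4 or more counts were also the deepest in 3 of 4 samples. The part of depth in the Retnlg levels of the bins was not tested. Ly6g increased over the 3 bins of members in 4 of 4 samples, Cd177, Ngp and Padi4 did so in 3 of 4, and Cks2, a small cyclin-dependent kinase subunit, decreased in 4 of 4. Lyz2 and Mgst1 increased over all 4 bins in 3 of 4 samples, and Il1b decreased over all 4 bins in 3 of 4. Cells of a sample are not replicates, so these bins carry no test.

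The counts of Ngp, Ltf and Camp lay in a few cells. Cells with 5 or more counts of the 3 genes together, a limit chosen after their values had been seen, numbered 1 of 365, 0 of 165, 10 of 449 and 11 of 311 among the members. By the exact Clopper-Pearson 95% interval the 0 of 165 allows a share of up to 2.21%. The metastasis-bearing shares were 2.23% (interval by the same method 1.07 to 4.06) and 3.54% (1.78 to 6.24). Among Mmp8-negative cells they were 1 of 295, 0 of 155, 0 of 301 and 1 of 386. In all, 21 of the 760 members of the 2 metastasis-bearing samples and 1 of the 530 members of the 2 naive samples were such cells. The intervals cover counting error within a sample and test no condition. The granule-rich cells held 95.3% and 96.7% of the 3 genes' counts in metastasis-bearing Het and Hom members. The single Mmp8-negative cell of metastasis-bearing Hom mice held 352 of its class's 394 counts, had 18492 UMIs and lay outside the Ly6C and Ly6G double-positive antibody gate.

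In the 21 granule-rich cells of metastasis-bearing mice the Mmp8 level was 34.9 per 10000 against 9.12 in the other members of the same samples and the median Mmp8 count 14 against 3, and 19 of the 21 lay in the Ly6C and Ly6G double-positive gate. Ngp was at 132 against 0.32, Ltf at 53.4 against 0.01 and Camp at 135 against 0.09, by the choice of the cells. Genes that the choice did not use moved with them: Lcn2 was at 96.9 against 27.9, Cd177 at 12.1 against 0.65, Chil3 at 14.9 against 1.74, Ly6g at 6.9 against 1.37, and Cebpe, the C/EBP factor of specific granule genes, at 0.9 against 0.13. Retnlg at 313 against 205 and S100a8 at 1603 against 965 differed less. In the other direction Cxcr2 was at 8.9 against 18.1, Csf3r at 5.6 against 27.3, Il1b at 6.4 against 39.8 and the stefin Stfa2l1 at 18.8 against 33.6. Ly6c2, which stands in the monocyte list, was at 7.3 against 1.17, with a count in 18 of the 21 cells. Elane and Mpo of azurophil granules had no count in the 21 cells and none in the 739 other members. The proliferation genes Mki67 and Top2a had no count in the 21 cells and a count in 7 and 1 of the 739. The absence of these genes thus does not set the 21 cells apart. The median depth of the 21 cells was 6137 UMIs against 3457, and the part of depth or doublets in these levels was not tested.

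**Figure D4:**
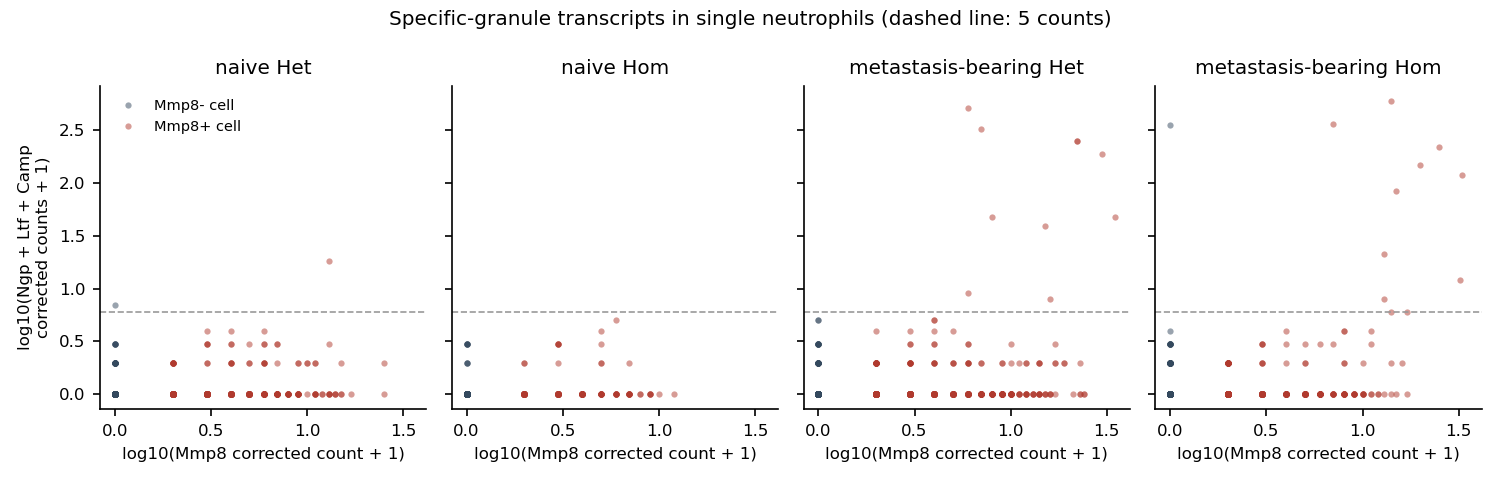
Summed Ngp, Ltf and Camp counts (y axis, log10 of count plus 1) against the Mmp8 count (x axis, log10 of count plus 1) for each Mmp8-positive and Mmp8-negative neutrophil, with 1 panel per hashed sample and a dashed line at 5 counts. Cells above the line are Mmp8-positive cells of metastasis-bearing mice in 21 cases, and naive Hom mice have 0.

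Without granule-rich cells the Mmp8 comparison gave 0.68 for Ngp (limma adjusted p = 0.03), 0.63 for Lcn2, 0.52 for Lyz2 and 0.45 for Cd177, which then did not pass (limma adjusted p = 0.0608), and Ltf and Camp lay under the level limit. Whether the Mmp8-positive minus Mmp8-negative difference itself was unequal between conditions was tested on the 4 within-sample differences. Between metastasis-bearing and naive mice 2 of 5465 genes (0.0366%) passed, Ngp and Ltf, of which Ltf is open to the level limit as above, and 278 had an unadjusted limma p under 0.05. Without granule-rich cells 0 genes passed by limma and 264 had such a p. The within-sample log2 differences were 1.11, -0.09, 4.09 and 2.68 for Ngp and 0.47, 0.35, 3.16 and 3.80 for Ltf. Between Hom and Het mice 7 genes (0.128%) passed, of which 4 were haemoglobin genes.

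Members from metastasis-bearing mice differed from members of naive mice in stefins, resistin-like protein and B cell transcripts. With 1 sample per group there was no test, and a gene was counted where it differed by 1.5-fold in the same direction in Het and in Hom mice: 78 of 5343 genes (1.46%) were higher and 42 (0.786%) lower. In single pairs 703 genes passed the fold in Het mice and 863 in Hom mice, and 60 passed in opposite directions. The median log2 of all genes was 0.13 in Het and -0.03 in Hom mice. The tables of naive and metastasis-bearing blood had been normalised separately, and condition, hashtag and animal cannot be told apart.

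Stefins and cystatins had 5 of 7 measured genes higher, beside 1.46% over all genes, and the same number without granule-rich cells. Stfa2l1 was at 11.9 and 9.64 in naive and 28.9 and 39.3 in metastasis-bearing Het and Hom members, a log2 difference of 1.27 in Het and 2.02 in Hom mice. Gm5483 was at 9.86 and 6.42 against 21.1 and 31 (1.09 and 2.25), BC100530 at 0.486 and 0.195 against 2.64 and 2.88 (2.22 and 3.34), and Stfa1 at 1.53 and 0.279 against 5.24 and 6.65 (1.72 and 4.16). Each metastasis-bearing sample thus stood above both naive samples. Retnlg was at 108 and 89.6 against 210 and 206. These differences were also present in Mmp8-negative cells, where Stfa2l1 gave 1.40 and 1.99 and Retnlg 1.03 and 1.13.

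Specific granule genes had 7 of 13 higher (Ltf, Camp, Ngp, Cd177, Chil3, Olfm4 and Itgb2l) and 2 without granule-rich cells. Over all genes 1.46% were higher with all members counted. Camp, Ngp and Ltf differed by 4.42, 3.30 and 3.16 in Het mice and by 4.60, 4.08 and 4.21 in Hom mice. Without granule-rich cells the same differences were 0.15, 0.33 and -0.43 in Het mice and -0.17, 0.56 and -0.15 in Hom mice. Chil3, a chitinase-like protein, was at 0.499 and 0.488 against 2.55 and 1.58, and Olfm4, olfactomedin of specific granules, at 0.0308 and 0.0697 against 0.331 and 0.217. Fkbp5, a glucocorticoid-induced chaperone, was at 0.154 and 0.111 against 0.689 and 0.53 (1.64 and 1.58), and Il1r2, the decoy receptor for interleukin 1, at 2.28 and 1.66 against 4.08 and 3.11. Acot1, an acyl-CoA thioesterase, was at 0.0246 and 0.0418 against 0.342 and 0.366. For Fkbp5 the difference in Mmp8-negative cells was 2.31 and 1.06. Mmp8-negative Il1r2 gave 0.94 and 0.43, so that only the Het pair passed 1.5-fold.

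Lower in metastasis-bearing members were the cytokine Mif at 0.677 and 0.571 against 0.247 and 0.217, resistin (Retn) at 1 and 1.03 against 0.599 and 0.508, and Tnf at 0.394 and 0.418 against 0.21 and 0.187. Retn and Retnlg, which are related secreted proteins, thus went in opposite directions. The B cell list had 5 of 6 measured genes lower, beside 0.786% lower over all genes. Among the 5 were Cd79a at 0.954 and 1.7 against 0.252 and 0.351 and Ighm at 2.6 and 3.45 against 1.25 and 1.04. H2-Ab1 of MHC class II and Ly6d moved with them, at 1.26 and 1.39 against 0.557 and 0.635 and at 0.739 and 1.78 against 0.347 and 0.351. Cells in the B220-positive gate were 30.2%, 47.1%, 32.5% and 17.4% of clear cells in the 4 samples. Mmp8-negative cells showed the same direction. Summed over 7 B cell genes, they stood at 7.24 and 7.93 in naive against 2.95 and 3.24 in metastasis-bearing mice. Members stood at 5.14 and 7.95 against 2.25 and 2.12. The part of free B cell RNA in these values was not tested.

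**Figure D5:**
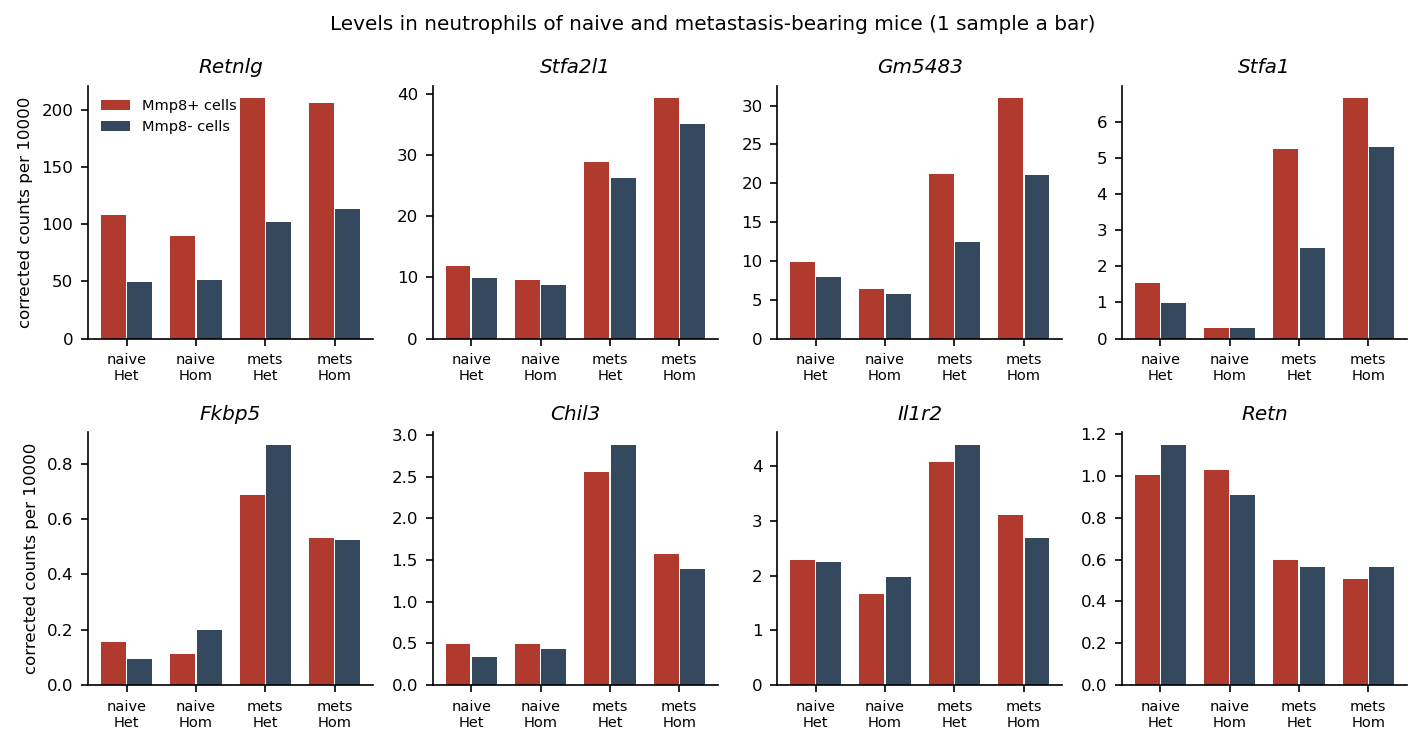
Corrected counts per 10000 (y axis) of 8 genes in Mmp8-positive and Mmp8-negative neutrophils of the 4 samples (x axis, 1 sample a bar, no error bars because each group is 1 sample). Retnlg, Stfa2l1, Gm5483 and Stfa1 are higher in both classes of metastasis-bearing mice than in the same class of naive mice, and Retn is lower.

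Between Hom and Het members 8 of 5290 genes (0.151%) were higher and 6 (0.113%) lower by 1.5-fold in both conditions, while 1066 passed in the naive pair alone, 184 in the metastasis-bearing pair and 42 in opposite directions. The higher genes that could be ranked were Gusb, a lysosomal glucuronidase, Retreg2, Arl5b, Acot13, Iqcc and Fam53b, and the lower ones Yae1d1, Mcmdc2 and Vps13a. Their levels were at most 0.613 per 10000 and rested on few counts: Arl5b had 10, 11, 7 and 20 counts and Yae1d1 18, 2, 33 and 2. At a lowest level of 1 per 10000 no gene was left in either direction.

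Of the antibody data, which the rule did not use, only the share in the Ly6C and Ly6G double-positive gate and the total count per cell were read. For neither was the direction the same in all 4 samples. Single antibodies were not compared between the classes. The Ly6C and Ly6G double-positive gate held 91.8%, 94.5%, 95.1% and 97.1% of Mmp8-positive cells and 92.9%, 97.4%, 95.3% and 96.4% of Mmp8-negative cells. The mean difference was -0.872 percentage points (two-sided exact sign-flip permutation test over 4 pairs, p = 0.375), and with 4 pairs this test cannot go below 0.05 whatever the values. Median antibody counts per cell were 6294, 6482, 6770 and 5521 against 6139, 6558, 6954 and 5478 (exact permutation p = 0.875 by the same test).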

How the data were processed

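RNA libraries of the pool were 10x single cell 3' v3 libraries, per the labels' protocols, and the submitters' processing notes name Cell Ranger 3.1 and mm10. Filters on cells and the version of Seurat are not given in the sources used here. The deposited tables hold natural log values of 1 plus a count that the authors had corrected with SCTransform, each table separately, and the deposited cell descriptions hold counts of raw UMIs, hashtags and antibodies and the authors' cluster numbers. Taking the exponential gave whole corrected counts, so no model for raw counts was used.

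Corrected counts were summed per hashed sample and Mmp8 class, scaled to 10000, given a pseudocount of 0.1 and compared with limma 3.58.1 (R 4.3.3, mean-variance trend) with the hashed sample as a block, over genes with a mean level of at least 0.1. The 6 genes of the rule were left out of the test. The labels do not say whether the blood hashtags were separate animals, so limma's p-values measure the spread between these 4 samples, with 3 degrees of freedom of a gene's own in the Mmp8 comparison and a spread shared over genes of a like level. Summaries used Python 3.11.15, pandas 2.3.3, numpy 2.4.6 and scipy 1.17.1. The script was tested on simulated data.

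The genes named were the 12 higher and 12 lower genes past the threshold whose 95% interval bound lay farthest from 0 and whose direction was the same in all 4 samples. This ranking skipped genes of ribosomal proteins, mitochondria, immunoglobulins and haemoglobins and those named Gm or Rik. Up to 6 genes per direction in each comparison of conditions, the markers and members of 33 gene lists were named as well, and Cks2, the haemoglobin genes and the granule-rich cells were chosen after their values were seen. The members, their markers and the lists were chosen with earlier results of these data known. Alternatives were other pseudocounts and level limits, other cell filters, thinning to 1000 corrected counts, matching on depth, median-ratio scaling, no block and leaving out each sample. Promoter sequences are RefSeq's, on GRCm38.p6. Brain cells were not used here. Results for 2 genes are not reported here.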

Additional observations from a re-analysis of the deposited data

Results flagged for a closer look

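The Mmp8-positive minus Mmp8-negative log2 difference of Ly6g in naive Hom mice, 0.26, lay far from those of the other 3 samples; chance gives such a distance in about 1 in 20 sets of 4. The difference of Ngp was 2.88 ± 0.37 (SE) larger in metastasis-bearing than in naive mice and that of Ltf 3.07 ± 0.36 larger, in 2 samples against 2. In Hom against Het mice the difference of Ngp was -1.31, of BC100530 -1.14 and of Stfa2 -1.80, each with an interaction past limma's adjusted threshold. It was -4.04 for Hbb-bt, -4.10 for Hbb-bs, -4.23 for Hba-a1 and -3.88 for Hba-a2. These Hom against Het tests leave 1 degree of freedom of a gene's own, so that they rest on the spread shared over genes, and a gene whose naive and metastasis-bearing pairs disagree can pass. For the haemoglobin genes 4 naive Het members held 3996 of 4201 counts and 1 naive Hom Mmp8-negative cell held 3059 of 3139.

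Outside neutrophils Mmp8 was read in 35.1%, 20%, 58.6% and 51.2% of the cells in the Ly6C-high gate, which holds monocytes, in the Het and Hom samples of naive mice and then of metastasis-bearing mice. The exact Clopper-Pearson intervals were 24.5 to 46.8, 13 to 28.7, 44.9 to 71.4 and 46.3 to 56.1, at median depths of 11183, 12128, 13195 and 14172 UMIs. Thinned to 1000 corrected counts the shares were 9.1%, 10.0%, 24.1% and 19.0%, against 0.2%, 0.3%, 0.6% and 0.6% in B220-positive cells. The level was 1.1, 0.6, 3.95 and 2.61 per 10000. Each condition was 1 sample, so the difference between conditions was not tested.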

How the results depend on the processing

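The number of genes called in the Mmp8 comparison depended on the setting, and the named genes depended on it less. The 78 higher genes became 33 without a level limit, 18 at matched depth, 26 after thinning and 173 under median-ratio scaling. The 451 lower genes became 240, 40, 153 and 132. Without the sample as a block limma called 0 higher and 0 lower genes, with 548 unadjusted p-values under 0.05. Leaving out a sample gave 27 higher and 180 lower genes without naive Het, 127 and 649 without naive Hom, 41 and 262 without metastasis-bearing Het, and 40 and 263 without metastasis-bearing Hom. Over all alternatives for named genes, 187 values of the higher genes stayed past the threshold and 24 did not, and for the lower genes 180 stayed and 28 did not. None of them changed direction. The higher genes counted here include Retnlg, Ly6g and Ltf, which are not counted as support. The 2 genes whose Mmp8 difference was unequal between metastasis-bearing and naive mice became 1 with a pseudocount of 0.01, and 0 at a level of at least 1, with all deposited cells, at matched depth and without granule-rich cells. The 7 genes for Hom against Het mice became 0 at a level of at least 1, 13 with all deposited cells, 11 under median-ratio scaling and 1 without haemoglobin-rich cells, where Hbb-bs turned to 0.20 and Hba-a2 to 0.086.

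The Mmp8-positive share was 28.9%, 24.4%, 34.3% and 23.2% after thinning, 41.7%, 36.3%, 46.0% and 29.7% when at least 2 counts were asked for, and 45.9%, 43.8%, 56.1% and 38.5% of all clear cells of the cluster. For metastasis-bearing against naive members, the 78 higher and 42 lower genes became 31 and 92 with all deposited cells, 214 and 121 after thinning, 201 and 108 with a pseudocount of 0.01, 15 and 4 with a pseudocount of 1, and 21 and 15 at a level of at least 1. Without granule-rich cells Camp turned to -0.17 in Hom mice, and Ltf to -0.43 in Het and -0.15 in Hom mice. For Hom against Het members the 8 higher genes became 162 after thinning, 41 at 2 or more Mmp8 counts, 101 with a pseudocount of 0.01, and 0 with a pseudocount of 1 or a level of at least 1. The 6 lower genes became 85, 10, 29, 0 and 0, and 2 with all deposited cells. After thinning Arl5b turned to -0.87 in naive and Acot13 to -0.52 in metastasis-bearing mice. The alternatives without granule-rich or haemoglobin-rich cells were chosen after seeing the data. The cause of the other changes was not tested.

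Each combination of condition and genotype was 1 hashed sample, so levels between conditions carry no test, and the tests of the Mmp8 difference set 2 samples against 2. Genes below 1 count per 10000 rest on few counts, and Mmp8 detection itself follows depth: a cell without a count is not shown to lack the mRNA. No paired analysis was possible because GEO's labels give the blood samples no replicate numbers; the pairs above are the 2 classes of cells within a sample.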
